A study of Mus musculus with 11 samples.

Results

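Hes1, Hes5, Hey1, Hey2, Heyl and Nrarp are 6 genes that activated Notch switches on directly, and their levels were followed in newborn mouse liver in which Notch was or was not forced on. The members were every probe of the arrays named for one of these genes, or for its RefSeq accession. They came to 7 of the 41174 distinct probes and to 6 of the 21176 gene symbols: Heyl had 2 probes and each of the other genes had 1. Hes1 lies on mouse chromosome 16, Hes5 and Heyl on 4, Hey1 on 3, Hey2 on 10 and Nrarp on 2.

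Liver RNA of 11 pups of a mixed 129 and C57BL/6 background was hybridised to 1-colour Agilent arrays. The 6 mutants carried AFP-Cre, in which the alpha-fetoprotein promoter drives Cre in the fetal liver lineage, together with Rosa26-lsl-NICD. In that allele a stop cassette flanked by loxP sites holds back the Notch intracellular domain (NICD) until Cre removes it. Mutants were taken at day 0 (the day of birth, 3 pups) and day 2 (3 pups), against controls with Rosa26-lsl-NICD alone at day 0 (2 pups) and day 2 (3 pups). Every pup thus carried the NICD allele, and no group carried AFP-Cre alone, so effects of Cre and of NICD cannot be told apart. Each sample is labelled as a numbered replicate of its group, and nothing more is given on how pups were chosen, so the p-values measure the spread between these samples.

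A Notch receptor that binds its ligand is cut, and the freed intracellular domain enters the nucleus, joins the DNA-binding protein RBPJ and a Mastermind co-activator, and turns on transcription. Hes and Hey genes encode basic helix-loop-helix repressors that carry the signal further by silencing their own targets, whereas Nrarp encodes a small ankyrin-repeat protein that binds the NICD and RBPJ complex and dampens it. In the developing liver, Notch directs bipotent progenitors towards bile duct cells, and Hes1 is needed for normal duct formation.

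Promoter windows from RefSeq (build GRCm38.p6, from 250 bases before to 50 bases after the gene start) were at hand for 3 of the 6 genes. Those windows were searched on both strands for GTGGGAA, the core letters of an RBPJ site, and for CACGTG, an E-box, which overlap nowhere in them. They are shown because Hes5 and Hey2 hold the same number of GTGGGAA matches here, while Hey2 passed the tests of genotype below and Hes5 did not. In capitals are GTGGGAA or its reverse complement in Hes5 and Hey2, and CACGTG in Nrarp. The windows lie at chr4:154960673-154960972 on the plus strand for Hes5, at chr10:30842734-30843033 on the minus strand for Hey2 and at chr2:25180508-25180807 on the plus strand for Nrarp.
Hes5 promoter: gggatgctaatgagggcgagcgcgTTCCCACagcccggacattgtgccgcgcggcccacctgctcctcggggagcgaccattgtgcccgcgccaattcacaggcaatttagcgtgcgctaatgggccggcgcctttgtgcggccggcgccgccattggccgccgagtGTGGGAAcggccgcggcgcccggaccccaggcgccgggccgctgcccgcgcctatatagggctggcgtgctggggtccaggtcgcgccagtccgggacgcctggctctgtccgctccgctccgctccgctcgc
Hey2 promoter: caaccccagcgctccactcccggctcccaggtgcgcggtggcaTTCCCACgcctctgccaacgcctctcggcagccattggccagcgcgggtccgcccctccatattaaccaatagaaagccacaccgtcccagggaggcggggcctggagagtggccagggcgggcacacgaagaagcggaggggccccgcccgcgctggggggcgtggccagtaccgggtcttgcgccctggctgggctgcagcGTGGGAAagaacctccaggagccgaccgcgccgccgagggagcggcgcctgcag
Nrarp promoter: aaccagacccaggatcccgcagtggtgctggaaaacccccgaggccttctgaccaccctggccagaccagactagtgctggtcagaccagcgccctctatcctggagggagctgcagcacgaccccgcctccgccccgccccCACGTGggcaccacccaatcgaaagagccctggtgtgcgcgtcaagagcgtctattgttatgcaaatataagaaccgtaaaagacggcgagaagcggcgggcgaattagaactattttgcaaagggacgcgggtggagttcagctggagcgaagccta
The Hes5 window held GTGGGAA in 2 places, on the minus strand from -226 to -220 and on the plus strand from -83 to -77 relative to the gene start. The Hey2 window also held it in 2 places, on the minus strand from -207 to -201 and on the plus strand from -4 to 3. The Nrarp window held CACGTG from -108 to -103, and the letters GTGGGAA were not in it. Of all 32851 promoter windows of the same length, 6.38% held GTGGGAA at least once, 0.256% held it in 2 or more places and 7.15% held CACGTG. These matches describe letters and do not show binding.

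Heyl was read by 2 probes, placed by the array files on chromosome 4 of build mm8 at 122752035 to 122752094 (the brighter probe) and at 122750548 to 122750607 (the dimmer probe), with starts 1487 bases apart. The first 30 of the 60 bases of each are given, since the 2 probes carried different day 0 calls.
Heyl brighter probe: aatcattttcttcaaggtctttgcccttct
Heyl dimmer probe: actgcagaacagtctcttgacactatgggg
The other probes lie, on mm8, at chr16:29985644-29985939 for Hes1, chr4:153806038-153806097 for Hes5, chr3:8646505-8646564 for Hey1, chr10:30522339-30522398 for Hey2 and chr2:25004527-25004586 for Nrarp. The 60 bases of the Hes1 probe are placed over a span of 296 bases, so the placement holds a gap. Exon and UTR positions on mm8 were not used here.

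Values are log2 of an array's background-subtracted signal minus the 75th percentile of that array, so 0 is a signal equal to that percentile. They compare arrays for 1 probe and not genes with each other. Between 63.3% and 68.6% of spots were well above background on each array. One library stood apart: mutant day 0 replicate 3 correlated across genes at 0.954 and 0.952 with the other day 0 mutants, against 0.983 to 0.991 for the other pairs of arrays within a group. On that array 600 genes lay at least 2-fold above all other arrays and 468 at least 2-fold below them, against at most 43 and 66 on any other array. By Xist and Y-linked probes the 3 day 0 mutants were females and the 2 day 0 controls males, so sex and genotype coincide at day 0; each day 2 group had 2 females and 1 male. The brightest Notch1 probe averaged -2.02 in day 0 mutants and -2.01 in day 0 controls. Those mutants read -2.43, -2.90 and, in replicate 3, -0.75, against -2.17 and -1.85 in the controls. The near equal day 0 means thus rest on replicate 3, and the other day 0 mutants lay below both controls. At day 2 the probe averaged -1.87 in mutants and -2.28 in controls (limma, adjusted p = 0.75 over both days). Whether it lies within the NICD transgene is not known here.

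Nrarp, Hey1, Hey2, Heyl and Hes1 were higher in mutant than in control livers over both days, and Hes5 did not pass the test. Thus 5 of 6 members rose at an adjusted p under 0.05 (limma, Benjamini-Hochberg over 15846 genes), where 8.82% of all genes tested rose. At day 0, 4 of 6 rose (Nrarp, Hey1, Hey2 and Hes1), against 1.6% of all genes. At day 2, 5 of 6 rose, against 9.66% of all genes. No member fell in any of these comparisons, where 6.94% of all genes fell over both days, 0.713% at day 0 and 6.58% at day 2. For Nrarp, Hes1, Hey1 and Hey2, 4 of 6 members, every mutant array lay above every control array of its day at both days, against 7.35% of all genes, and no member lay below in this way, against 6.98%. Since RNA came from bulk liver, more cells of a type and more RNA per cell cannot be told apart in these values. The median difference of the members over both days was 2.58, against -0.05 over all genes. The members' median lies midway between Heyl (2.35) and Hey2 (2.81), and the Hey2 probe was not well above background in most controls. Day 2 mutants lay close together for Hes1, Hey1 and Heyl, with SDs of 0.11, 0.11 and 0.09 (n = 3 each), while the day 0 mutants had SDs of 0.90, 0.84 and 1.30 for the same genes. Replicate 3 lay at one end of the day 0 mutants for each of them.

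**Figure D1:**
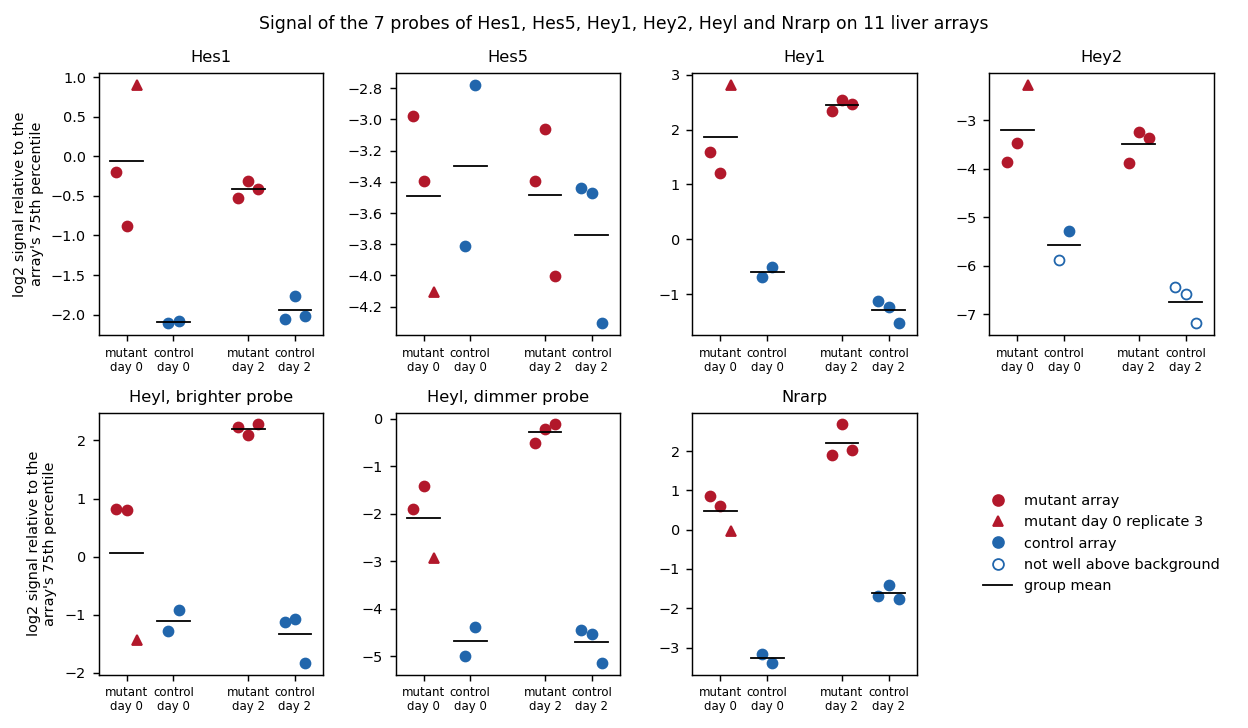
Log2 signal of each member's probe on the 11 arrays (y axis, relative to the array's 75th percentile; scales differ between panels), with mutant arrays in red left of control arrays in blue at each day, and group means as black lines. Triangles mark mutant day 0 replicate 3, which is the highest of all 11 arrays for Hes1, Hey1 and Hey2 and the lowest mutant for Nrarp and both Heyl probes; open circles are not well above background.

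Nrarp, the feedback inhibitor, ranked highest among the members at both days when Heyl was read from its brighter probe; at day 2 the dimmer Heyl probe differed by more (4.43 against 3.83). It stood at 0.85, 0.61 and -0.03 in day 0 mutants, against -3.16 and -3.38 in day 0 controls. In day 2 mutants it stood at 1.91, 2.68 and 2.03, against -1.68, -1.42 and -1.77 in day 2 controls. The groups were far apart at both days, with the lowest mutant 3.13 above the highest control at day 0 and 3.32 at day 2. The difference was 3.75 ± 0.30 (SE) at day 0, a 13.4-fold rise (adjusted p = 0.000678), and 3.83 ± 0.27 at day 2, a 14.2-fold rise (adjusted p = 3.5e-05). Among all 15846 genes its difference ranked 20 at day 0 and 81 at day 2 from the top. The effect at day 2 minus that at day 0 did not pass the test of the interaction (0.08, 95% confidence interval -0.82 to 0.98, adjusted p = 0.952).

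Hes1, the family member needed for duct formation, rose at both days. Its values were -0.20, -0.88 and 0.90 in day 0 mutants, against -2.11 and -2.08 in day 0 controls. At day 2 they were -0.53, -0.31 and -0.42 in mutants, against -2.05, -1.77 and -2.02 in controls. No mutant array overlapped a control array of its day, and the single highest of the 11 arrays was mutant day 0 replicate 3. Over both days the difference was 1.78 ± 0.27, or 3.44-fold (adjusted p = 0.00244). It was 2.04 ± 0.40 at day 0 (4.10-fold, adjusted p = 0.0357) and 1.53 ± 0.36 at day 2 (2.89-fold, adjusted p = 0.0201). Without mutant day 0 replicate 3 the day 0 difference was 1.56 ± 0.22 (adjusted p = 0.007). The call at day 0 was lost in most other settings (it passed in 8 of 21), and the call at day 2 was lost when any array of that day was left out except control replicate 2 (adjusted p from 0.0501 to 0.0721).

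Hes5, best known as a Notch target in neural progenitors, showed no such separation. It measured -2.98, -3.39 and -4.11 in day 0 mutants, against -3.81 and -2.78 in day 0 controls. In day 2 mutants it measured -3.39, -3.06 and -4.00, against -3.44, -3.47 and -4.31 in day 2 controls. Mutant and control arrays overlapped at both days although the probe was well above background on all 11 arrays. The difference over both days was 0.03 ± 0.30 (adjusted p = 0.963), with a 95% confidence interval from -0.65 to 0.71. At single days the interval ran from -1.21 to 0.81 at day 0 and from -0.65 to 1.16 at day 2. The Hes5 promoter window printed above, with its 2 GTGGGAA matches, thus belongs to the 1 member that passed no test of genotype or age.

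Hey1, a repressor of the Hey subfamily, rose at both days. Its values were 1.59, 1.21 and 2.81 in day 0 mutants, against -0.68 and -0.50 in day 0 controls. At day 2 they were 2.33, 2.54 and 2.46 in mutants, against -1.12, -1.23 and -1.53 in controls. All 6 mutants exceeded all 5 controls. The difference was 2.46 ± 0.39 at day 0 (5.52-fold, adjusted p = 0.013) and 3.74 ± 0.35 at day 2 (13.3-fold, adjusted p = 0.000141). The rise at day 2 exceeded that at day 0 by 1.27 ± 0.52, which did not pass over all genes (adjusted p = 0.302). With mutant day 0 replicate 3 left out, the excess was 1.74 ± 0.24 and passed (adjusted p = 0.0204).

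Hey2, a partner of Hey1 best known from heart and arteries, was dim. In day 0 mutants it measured -3.86, -3.47 and -2.28, against -5.88 and -5.28 in day 0 controls. In day 2 mutants it measured -3.89, -3.25 and -3.36, against -6.45, -6.59 and -7.19 in day 2 controls. It was well above background in all 6 mutants, in 1 of 2 day 0 controls and in 0 of 3 day 2 controls. At day 2 mutants were therefore at least 5.73-fold higher, with each control held no lower than the dimmest signal above background on its array. This bound was not tested. The limma test used the fitted values, with controls as measured below background, and passed (adjusted p = 0.000777). At day 0 the difference was 2.38 ± 0.45 (5.20-fold, adjusted p = 0.0286), with 1 of the 2 controls not measured above background. With the background corrected by normexp, which adds an offset, the difference was 1.04 at day 0 (adjusted p = 0.131) and 0.79 at day 2 (adjusted p = 0.079). Both calls were lost, and the reason was not tested.

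Heyl, the Hey relative expressed in vascular smooth muscle among other tissues, was called at day 2 and, by its brighter probe, not at day 0. This probe, from which the gene was read, stood at 0.81, 0.80 and -1.44 in day 0 mutants, against -1.29 and -0.93 in day 0 controls. At day 2 it stood at 2.24, 2.10 and 2.27 in mutants, against -1.12, -1.07 and -1.82 in controls. At day 0 the groups overlapped through mutant replicate 3 alone, which lay below both controls, and at day 2 the lowest mutant was 3.17 above the highest control. The difference was 1.16 ± 0.59 at day 0, which did not pass (adjusted p = 0.395), and 3.54 ± 0.53 at day 2, an 11.6-fold rise (adjusted p = 0.00233). Leaving out that array gave a day 0 difference of 1.91 ± 0.25, or 3.76-fold, which passed (adjusted p = 0.0056).

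The dimmer Heyl probe, like the brighter one well above background on all 11 arrays, separated the groups at both days. It read -1.89, -1.42 and -2.94 in day 0 mutants, against -5.00 and -4.38 in day 0 controls. At day 2 it read -0.50, -0.22 and -0.12 in mutants, against -4.45, -4.54 and -5.14 in controls. Replicate 3 was again the lowest day 0 mutant, but here it stayed above both controls. In the fit over 27073 probes the difference of this probe was 2.61 ± 0.41 at day 0 (adjusted p = 0.0151) and 4.43 ± 0.37 at day 2 (adjusted p = 9.43e-05). The 2 probes gave the same direction, and their day 0 intervals overlapped (1.69 to 3.53 for the dimmer probe and -0.16 to 2.49 for the brighter one). The gap between the days was 2.38 ± 0.79 in the brighter probe (adjusted p = 0.265) and 1.82 ± 0.55 in the dimmer one (adjusted p = 0.236), and passed in neither.

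**Figure D2:**
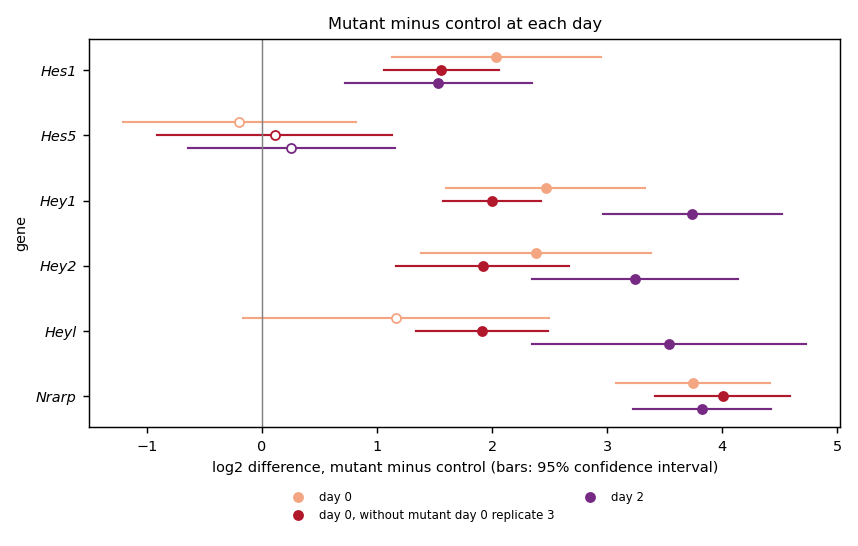
Log2 difference of mutant minus control for each gene (x axis) with 95% confidence intervals, at day 0, at day 0 without mutant day 0 replicate 3, and at day 2; filled points pass an adjusted p of 0.05. Nrarp sits at 3.75 and 3.83 on the 2 days, Hey1 at 2.46 and 3.74 and Hes5 near 0; the Hey2 points are fitted values of a probe not above background in most controls and are not sizes.

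No member passed the test of the difference between the days, where 0.233% of all genes passed upwards and 0.0379% downwards (limma, with 2319 genes at an unadjusted p under 0.05 and 43 after adjustment). When mutant day 0 replicate 3 was left out, Hey1 was the 1 member that did, where 228 of all genes passed upwards. Heyl followed at 1.63 ± 0.32 (adjusted p = 0.0503). The day 0 calls rested on few arrays. With sex as a covariate, with day 0 fitted on its own 5 arrays or without either day 0 control, Nrarp was the 1 member that rose at day 0, whereas without mutant day 0 replicate 3 all but Hes5 did. With the replicate number, which is also the slide, as a block, Nrarp and Hey1 rose at day 0, and Hes1 (adjusted p = 0.0857) and Hey2 (adjusted p = 0.0642) did not. Day 2 calls of Nrarp, Hey1 and Heyl held in all 21, 21 and 22 other settings.

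Mutants and controls of 1 replicate number shared a slide, which allowed values within slides, with no test. For Nrarp they were 4.01 and 3.996 on slides 1 and 2 at day 0, and 3.59, 4.09 and 3.797 on slides 1 to 3 at day 2. Hes1 gave 1.91 and 1.201 at day 0, and 1.53, 1.46 and 1.60 at day 2. Hey1 gave 2.27 and 1.72 at day 0, and 3.45, 3.77 and 3.99 at day 2. On every slide these 3 genes were higher in the mutant. The brighter Heyl probe gave 2.10 and 1.72 at day 0, and 3.35, 3.17 and 4.10 at day 2, and so was also higher in each mutant with a control on its slide. Hes5 gave 0.83 and -0.61 at day 0, and 0.05, 0.41 and 0.31 at day 2, with both signs at day 0. Slide 3 holds mutant day 0 replicate 3 and no day 0 control, so it gives no day 0 value.

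**Figure D3:**
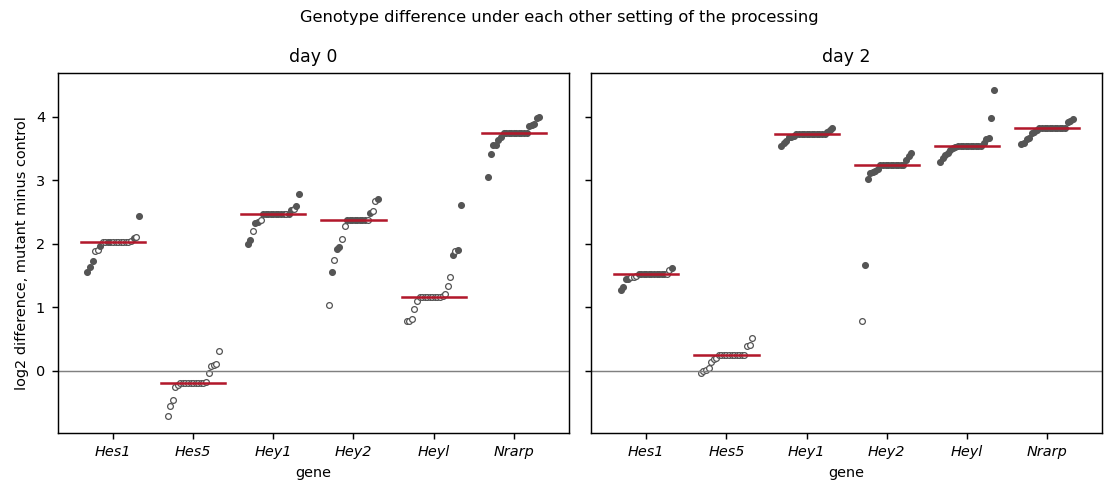
Log2 difference of mutant minus control for each gene at day 0 (left) and day 2 (right) under every other setting tested (small points, sorted by value; filled where the adjusted p is under 0.05), with the reported value as a red line. Nrarp stays between 3.05 and 4.001 at day 0, Hes1 between 1.56 and 2.45 with mostly open points, and Hey2 drops to 1.04 at day 0 and 0.79 at day 2 under normexp.

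Between day 0 and day 2 Nrarp rose in both genotypes. In mutants it averaged 2.20 ± 0.41 at day 2 and 0.48 ± 0.45 at day 0 (SD, n = 3 each), a rise of 1.73 ± 0.27 (SE; 3.31-fold, adjusted p = 0.00432). In controls it averaged -1.62 ± 0.18 at day 2 (SD, n = 3) and -3.27 ± 0.16 at day 0 (SD, n = 2), a rise of 1.65 ± 0.30 (3.14-fold, adjusted p = 0.0115). The rise in controls was lost without either day 0 control (adjusted p = 0.0677 and 0.0995) and with sex as a covariate (1.43, adjusted p = 0.0796). Heyl rose in mutants by 2.14 ± 0.53 (4.42-fold, adjusted p = 0.0231) and measured -0.23 ± 0.59 in controls (adjusted p = 0.821). The dimmer Heyl probe rose in mutants by 1.80 ± 0.37 (adjusted p = 0.0118) and measured -0.02 ± 0.41 in controls. When mutant day 0 replicate 3 was left out, the rise of Heyl in mutants was 1.397 ± 0.23, or 2.63-fold (adjusted p = 0.00578). With all day 0 mutants kept, it was lost when any day 2 mutant was left out (adjusted p from 0.0604 to 0.0716).

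In all, 2 of 6 members rose with age in mutants, where 9.4% of all genes did, and 1 of 6 in controls, where 5.47% did. None fell, while 11.3% of all genes fell in mutants and 5.71% in controls. Hey1 differed by 0.57 ± 0.35 in mutants and -0.70 ± 0.39 in controls, neither of which passed (adjusted p = 0.249 and 0.259). Both passed without mutant day 0 replicate 3, with a rise of 1.04 ± 0.17 in mutants (adjusted p = 0.00565) and a fall in controls (-0.70 ± 0.17, adjusted p = 0.0191). Hes1 differed by -0.35 ± 0.36 in mutants and 0.15 ± 0.40 in controls, and Hes5 by 0.01 ± 0.40 in mutants and -0.44 ± 0.45 in controls. Hey2 differed by -0.30 ± 0.40 in mutants, whose day 2 and day 0 arrays overlapped, and no size is given for controls, where all day 2 arrays were below background. In controls Hey2 did not pass (adjusted p = 0.12), but fell without mutant day 0 replicate 3 (adjusted p = 0.024) and with array weights (adjusted p = 0.0166).

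**Figure D4:**
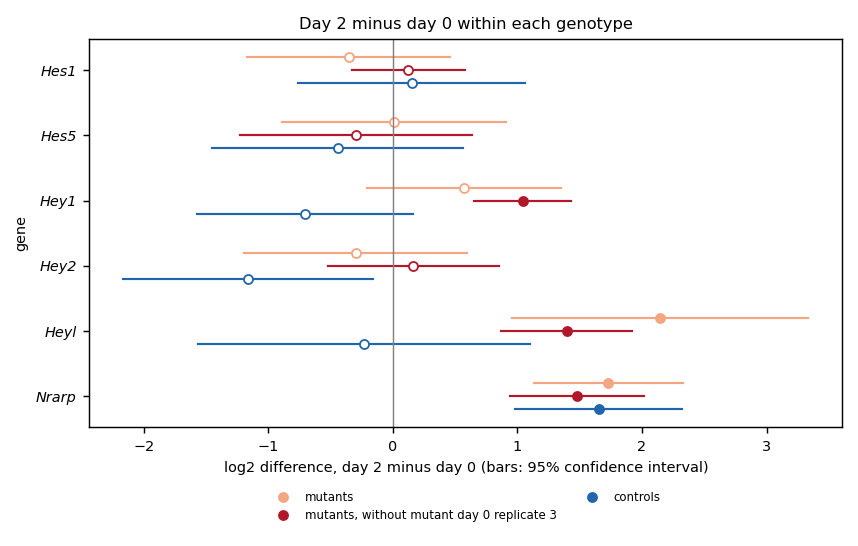
Log2 difference of day 2 minus day 0 (x axis) with 95% confidence intervals for each gene in mutants, in mutants without day 0 replicate 3 and in controls; filled points pass an adjusted p of 0.05. Nrarp lies at 1.73 in mutants and 1.65 in controls, while Heyl lies at 2.14 in mutants and -0.23 in controls; Hey2 in controls is a fitted value of a probe below background.

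The members differed in how their levels ran over the 11 arrays. After each profile was centred on its mean, Hey1 and Hey2 were the closest pair, with a root mean square difference of 0.44, followed by Hes1 and Hey2 (0.79) and Hes1 and Hey1 (0.84). Distances to Hey2 rest in part on 4 of 11 arrays where its probe was not well above background. Mutant day 0 replicate 3 was the highest array for each of these 3 genes. Heyl and Nrarp came next at 1.01, and both were lowest among mutants in that replicate. Hes5 was farthest from Nrarp, at 2.03.

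Among all named genes, the profiles nearest to each member were then taken by the same measure. For Hes1 they were Bend5, the transglutaminase Tgm2 and the nucleoside transporter Slc29a2 (0.30, 0.33 and 0.34). For Hey1 they were the collagen receptor Ddr1, the protease Adamts1 and the ciliary protein gene Tekt1 (0.40, 0.41 and 0.42), and for Hey2 they were Osbpl6, Hey1 and the fatty-acid binding protein gene Fabp3 (0.36, 0.44 and 0.48). For Heyl they were Rassf10, the semaphorin Sema5a and the receptor Ror1 (0.34, 0.40 and 0.40), and for Nrarp they were Camk2n2, an inhibitor of a calcium-dependent kinase, Aif1l and Phf21b (0.48, 0.48 and 0.49). For Hes5 they included Ebf1, a B cell transcription factor, and Pacsin1 (0.17 and 0.24). Likeness is a description over 11 arrays that share slides and groups.

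These genes were picked for likeness on the same arrays, so their differences between genotypes follow from the choice and are given as descriptions. Mutant minus control, Ddr1 differed by 1.97 at day 0 and 4.16 at day 2, Tgm2 by 2.41 and 1.42, Phf21b by 3.21 and 3.57 and Sema5a by 0.80 and 3.07. Osbpl6, Rassf10 and Ror1 were not above background in any control, and in day 2 mutants they were higher by at least 1.92-fold for Osbpl6, 2.95-fold for Rassf10 and 2.27-fold for Ror1.

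Around the 6 genes, the machinery of the pathway was then counted. Of 37 receptors, ligands, processing enzymes and nuclear partners tested, 9 rose over both days, 0 fell and 28 did not pass. Over all genes 8.82% rose and 6.94% fell. The median difference was 0.20 against -0.05 over all genes, and at day 0 none of the 37 passed. Without mutant day 0 replicate 3, 10 rose and 2 fell. Leaving out that array also raised the number of all genes that rose over both days, from 1397 to 2077. How many of all genes fell without it was not counted. These backgrounds hold for the list counts below as well. Dtx1, a ubiquitin ligase of the pathway, rose by 2.24 ± 0.38 (adjusted p = 0.0044), with 1 of 2 day 0 controls above background. Aph1b, a subunit of gamma-secretase, rose by 0.58 ± 0.10 (adjusted p = 0.00479), the receptor gene Notch4 by 0.61 ± 0.12 (adjusted p = 0.00838) and the ligand-like Dlk1 by 0.84 ± 0.17 (adjusted p = 0.0101). Notch4 averaged -0.54 in day 0 mutants against -0.62 in day 0 controls, and -0.09 in day 2 mutants against -1.23 in day 2 controls. Aph1b averaged 0.13 in mutants against 0.05 in controls at day 0, and 0.36 against -0.72 at day 2. Rbpj, the DNA-binding partner of NICD, measured 0.22 ± 0.32 (adjusted p = 0.705). It read -0.13, -0.44 and, in replicate 3, 1.59 in day 0 mutants, against -0.17 and -0.02 in day 0 controls. At day 2 it averaged -0.45 in mutants and -0.46 in controls, so its difference rests on that replicate.

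Among 26 other reported Notch targets, 8 rose over both days and 0 fell, with a median of 0.40. Of all genes 8.82% rose and 6.94% fell. Without mutant day 0 replicate 3 the counts were 9 and 1. Sox9, whose product marks and patterns bile ducts, rose by 4.30 ± 0.18 (adjusted p = 4.79e-06). The cadherin Cdh6 was at least 12.6-fold higher in mutants at day 2, where no control was above background. Hmga2, a chromatin protein gene, rose by 1.84 ± 0.16 (adjusted p = 8.75e-05) and the cell cycle gene Ccnd1 by 2.80 ± 0.27 (adjusted p = 0.000169). The lists share genes: of the 8 that rose, Dtx1 and Jag1 also count among the pathway parts that rose. Sox9 also counts among the bile duct markers below.

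Of 21 relatives and co-repressors of the Hes proteins, 2 rose over both days and 0 fell (median 0.01). Among all genes 8.82% rose and 6.94% fell, so the number that rose lies near the share of all genes. The 2 were Id1, an inhibitor of helix-loop-helix factors (1.29 ± 0.26, adjusted p = 0.00934), and the co-repressor gene Ctbp2 (0.52 ± 0.14, adjusted p = 0.036). Leaving out mutant day 0 replicate 3 gave 4 that rose and 5 that fell, while 2077 of all genes rose, against 1397 with all arrays. Of 14 genes that Hes or Hey proteins are known to repress in other tissues, 3 rose and 2 fell (median 0.00). Those that rose were Gata6, a transcription factor (1.41 ± 0.12, adjusted p = 0.000105), the Notch ligand gene Dll1 (0.97 ± 0.22, adjusted p = 0.0182) and Cdh1, which encodes E-cadherin (0.57 ± 0.13, adjusted p = 0.0201). Those that fell were the proneural gene Neurog2 (-1.18 ± 0.31, adjusted p = 0.0318, above background in 2 of 3 day 2 mutants) and, named after its value was seen, the cell cycle inhibitor gene Cdkn1b (-0.79 ± 0.23, adjusted p = 0.0436). Dll1 also counts among the pathway parts that rose. Cdkn1b averaged -0.02 in day 0 mutants against 0.16 in day 0 controls, and -1.10 against 0.31 at day 2. At day 2, 3 of the 14 rose and 3 fell, where 9.66% of all genes rose and 6.58% fell. Gadd45g, named after its value was seen, fell at day 2 (-1.16 ± 0.30, limma, adjusted p = 0.0284). At day 0 it averaged 4.44 in mutants and 3.11 in controls.

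**Figure D5:**
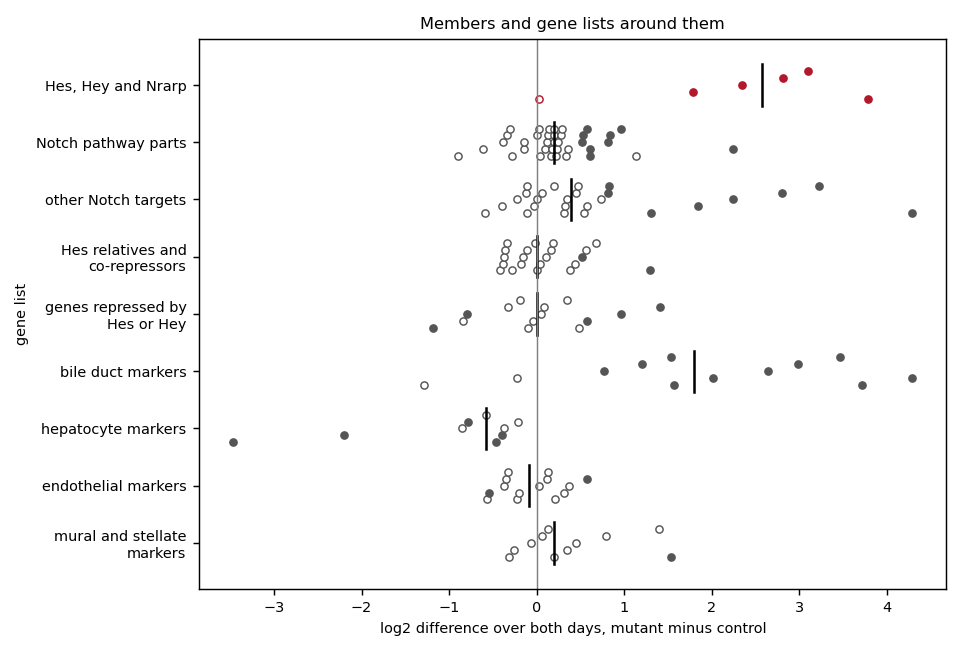
Log2 difference of mutant minus control over both days (x axis) for the 6 members in red and for the genes of 8 lists, 1 point per gene tested, filled where the adjusted p is under 0.05, with the median of each list as a black bar. The medians are 2.58 for the members, 1.80 for bile duct markers, 0.40 for other Notch targets and between -0.57 and 0.20 for the other lists; fitted values of genes below background in a group are not sizes.

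Cell type markers moved with the same groups. Of 12 bile duct markers tested 10 rose over both days, among them Sox9, Cldn7 (2.99 ± 0.21, adjusted p = 3.21e-05) and Epcam (3.46 ± 0.26, adjusted p = 4.21e-05). Over both days 8.82% of all genes rose. At day 0, 5 of the 12 rose, against 1.6% of all genes, and at day 2, 10 rose, against 9.66%. Krt7, named after its value was seen, averaged 1.08 in day 0 mutants and 1.35 in day 0 controls. Its genotype effect differed between the days by 2.09, which passed (limma, adjusted p = 0.0461). Over both days Onecut1, also named after its value was seen, measured -1.29 ± 0.40 and did not pass (adjusted p = 0.057). Without mutant day 0 replicate 3, 10 duct markers rose over both days and 1 fell. Their summed signal, in units of the array's 75th percentile, was 96.4 to 349 in day 0 mutants, against 32.6 to 33.9 in day 0 controls. It was 227 to 272 in day 2 mutants, against 14.5 to 21.0 in day 2 controls. These sums rest mostly on Spp1, named after its value was seen. Spp1 averaged 7.31 in day 0 mutants and 4.14 in day 0 controls, and 7.71 in day 2 mutants and 3.45 in day 2 controls (log2). The mean log2 of the same markers was 0.15 to 0.43 in day 0 mutants, against -1.04 to -0.87 in day 0 controls, and 0.82 to 0.89 in day 2 mutants, against -1.85 to -1.43 in day 2 controls. Mutant day 0 replicate 3 had the lowest sum of the mutants, 96.4, and the highest mean log2 of the day 0 mutants, 0.43. Cldn4, one of the 10 duct markers that rose, was above background on 4 of the 11 arrays, in 0 controls and in 1 of 3 day 0 mutants. In day 2 mutants it was at least 2.33-fold higher. Cftr, also a duct marker, was above background on 2 of the 11 arrays and was not tested.

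Hepatocyte markers, which label the tissue, were above background on all arrays wherever probed. Over both days 0 of 9 rose and 5 fell, where 6.94% of all genes fell. The lowest p-value was that of the amino acid enzyme Tat (-2.21 ± 0.21, adjusted p = 0.00016), and Apoa1, Apoh and Trf fell by 0.79, 0.47 and 0.40. The remaining one, named after its value was seen, was Cyp2e1, with the largest fall of the 5 (-3.47 ± 1.00, adjusted p = 0.0451). Over the arrays without mutant day 0 replicate 3, 8 of 9 fell. Summed over the 7 markers neither saturated nor missing on any array, they stood at 920 to 1061 in day 0 mutants, against 1167 to 1325 in day 0 controls, and at 612 to 738 in day 2 mutants, against 1006 to 1270 in day 2 controls. The part of the duct and hepatocyte markers in the differences of the 6 genes was not tested.

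Hey genes and Nrarp are also known from vessels. Unless a day is named, the counts that follow are over both days, where 8.82% of all genes rose and 6.94% fell. Of 14 endothelial markers 1 rose (Emcn, 0.58 ± 0.14, adjusted p = 0.0214) and 1 fell (Stab2, -0.54 ± 0.14, adjusted p = 0.0264), and all 14 were above background on all 11 arrays. Their summed signal was 19.2 to 27.4 in day 0 mutants, against 22.1 to 22.7 in day 0 controls, and 14.8 to 17.9 in day 2 mutants, against 14.7 to 17.97 in day 2 controls. The endothelial sums overlapped between genotypes at both days. Of 11 mural and stellate markers 1 rose (Cspg4, 1.54 ± 0.21, adjusted p = 0.00138), with sums of 98.6 to 151 in day 0 mutants, against 80.5 to 99.4 in day 0 controls, and of 61.2 to 70.9 in day 2 mutants, against 94.95 to 188 in day 2 controls. These sums rest mostly on Tagln, named after its value was seen. Tagln averaged 6.67 in day 0 mutants, 6.11 in day 0 controls, 5.61 in day 2 mutants and 6.69 in day 2 controls (log2). At day 2, 2 of the 11 markers rose and 1 fell, Tagln (-1.08 ± 0.30, limma, adjusted p = 0.0392). The mean log2 of the 11 markers ran the other way at day 2, at -0.44 to -0.15 in day 2 mutants, against -1.06 to -0.56 in day 2 controls. At day 0 it was -0.46 to -0.06 in mutants, against -0.72 to -0.64 in controls. Of 8 erythroid markers 2 fell, Gata1 and Slc4a1 (-1.06 ± 0.17 and -1.03 ± 0.27), with sums of 197 to 258 in day 0 mutants, against 278 to 290 in day 0 controls, and of 46.6 to 89.2 in day 2 mutants, against 162 to 265 in day 2 controls. When mutant day 0 replicate 3 was left out, 5 of the 8 fell. Of 7 macrophage markers 2 fell, Csf1r and Adgre1 (-0.61 ± 0.12 and -0.64 ± 0.14), with sums of 54.7 to 80.4 in day 0 mutants, against 60.2 to 86.1 in day 0 controls, and of 64.7 to 107 in day 2 mutants, against 76.0 to 85.4 in day 2 controls. These sums overlapped, whereas the mean log2 did not: it was 0.82 to 1.68 in day 0 mutants, against 1.91 to 2.13 in day 0 controls, and 0.87 to 1.39 in day 2 mutants, against 1.60 to 1.83 in day 2 controls. Of these 7, 4 fell without mutant day 0 replicate 3. The arrays without that replicate gave 2 mural markers that rose and 2 endothelial markers that fell. The part of these cell types in the members' differences was not tested.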

How the data were processed

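Liver RNA of 11 pups was measured on 1-colour arrays. The authors deposited scanner output holding background-subtracted intensity values (Agilent Feature Extraction 9.5.3.1, per the file headers). They also deposited a table of log2 values made with RMA, per the submitters' processing notes, with settings not given in the sources used here; it served as an alternative. Each array's log2 intensity was reduced by that of its 75th percentile. Control spots and outlier-flagged spots were left out and repeated spots averaged. Probes were named through RefSeq accessions (23374), current symbols (6733) or synonyms (2919), 1660 kept the file's name and 6488 had none. Tested probes were those that the scanner software called well above background in all samples of 1 or more groups, and a gene was read from its brightest tested probe.

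Means of 4 groups were fitted with limma 3.58.1 in R 4.3.3 (7 residual degrees of freedom), with Benjamini-Hochberg adjustment over 15846 genes and a threshold of 0.05. The number of arrays limits the precision. The code was tested on simulated data. Named genes were the members, the 3 genes nearest to each by profile (clone names and predicted genes passed over), and up to 4 called genes per list by p-value. Some genes that this rule names are not reported here. The members and lists were chosen with earlier results of these data known, and the second Heyl probe and the list counts without mutant day 0 replicate 3 were added after seeing the data. Alternatives were normexp (offset 50), quantile normalization, no filter, array weights, sex, a replicate block, single days, single slides and single arrays left out. Replicate numbers coincide with slides, read from array identifiers, and each group sat at 1 position on every slide, so position and group cannot be told apart. Deviations of same-numbered day 2 arrays correlated at 0.28, 0.227 and 0.258, and those at day 0 at 0.0601 and 0.0913. Differently numbered day 2 arrays correlated from -0.213 to -0.0506.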

Additional observations from a re-analysis of the deposited data

How the results depend on the processing

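Over both days the calls of Nrarp, Hey1, Hey2, Heyl and Hes1 held in every other setting in which a test was run, and Hes5 passed in none. For values and calls that changed, the cause was not tested unless a setting uses fewer arrays. Hes5, near 0 throughout, turned sign over both days with normexp (-0.011), quantile normalization (-0.016), the authors' RMA table (-0.0125) and sex as a covariate (-0.15), and within slide 2 (-0.10). At day 0 Hes5 read 0.091 with array weights and 0.83 within slide 1. Array weights turned the day 2 minus day 0 effect of Hes5 to -0.078 and of Nrarp to -0.31, and the age difference in mutants of Hes1 to 0.028, Hes5 to -0.39 and Hey2 to 0.12. Normexp turned the effect gap of Hey2 to -0.25 and the mutant age difference of Hes5 to -0.24, and quantile normalization turned the gap of Nrarp to -0.11. Within single slides, Hes1 over both days was 1.33 on slide 2 and Hey2 2.29 on slide 1.

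The numbers share a slide, but not every same-numbered pair correlated above 0.1, so the replicate block stayed an alternative. All same-numbered day 2 pairs did, and all differently numbered day 2 pairs correlated below 0. The 2 day 0 controls deviate from their mean by mirrored amounts, so the day 0 correlations cannot decide on pairing. Under the replicate block 2 members rose at day 0, Hes1 (1.89, adjusted p = 0.0857) and Hey2 (2.28, adjusted p = 0.0642) being lost, and no other call of a member changed; Hes5 at day 0 read 0.086, the effect gap of Nrarp -0.061 and Heyl with age in controls 0.087.

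Members that rose at day 0 numbered 1 with sex as a covariate and 1 with day 0 fitted alone. With array weights 2 members passed the effect gap upwards, where 388 of all genes did. With sex 0 members rose with age in controls, where 142 of all genes did. Genes that rose over both days numbered 723 with sex and 2316 with array weights. At day 0 they were 23 with sex, 738 with array weights and 38 with day 0 fitted alone, and at day 2 they were 2487 with array weights.

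With single arrays left out, Hes5 ran from -0.23 to 0.29 over both days, -0.71 to 0.32 at day 0 and -0.029 to 0.51 at day 2, its effect gap from -0.064 to 0.97, and its age difference from -0.96 to 0.073 in controls and -0.30 to 0.27 in mutants. The effect gap of Nrarp ran from -0.18 to 0.26. Age differences ran from -0.41 to 0.012 for Heyl in controls, -0.77 to 0.12 for Hes1 in mutants and -0.62 to 0.17 for Hey2 in mutants. Members that rose numbered 1 to 5 at day 0 and 4 to 5 at day 2, 0 to 1 in the effect gap, 0 to 1 with age in controls and 1 to 3 with age in mutants. All genes that rose numbered 873 to 2077 over both days, 54 to 519 at day 0 and 1000 to 2347 at day 2. They numbered 1 to 228 in the effect gap, 116 to 2195 with age in controls and 630 to 1610 with age in mutants. Hey2 lay near background in controls, which limits the size of its difference.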
